A study of Homo sapiens with 54 samples.

Results

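These results describe 7 RNAs whose level in the anti-Argonaute immunoprecipitate (IP) stood higher after transfection of a negative control RNA than after any other transfection: MRGBP, SLC41A3, TAF12, NPTN, RNVU1-15, MRPL32 and RPL26L1. For RPL26L1 this held with the probe set used and not with its second probe set. The 7 were chosen from the IP values themselves, because the 3 control IP arrays lay above the 24 other IP arrays, so their IP difference is given as a description with no test. The 7 genes are among 18417 genes with a probe set on the array, all 7 were among the 11050 that passed a filter on low values, and 9 probe sets map to them. The study measured RNA in H4, an established human line described as glioneuronal, 48 h after transfection, on 54 Affymetrix Human Gene 1.0 ST arrays. Each transfection gave an IP made with the monoclonal anti-Argonaute antibody 2A8 and a matching total lysate, with 3 biological replicates of each.

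Cells received miR-103, miR-107, miR-16 or miR-195 (natural microRNAs related in sequence at the seed), miR-320, miR-15b*, 1 of 2 altered molecules related to miR-107, or the negative control RNA from Ambion. The molecule named miR-15b* in the design text is written miR-15b and called an antisense control in the sample labels. The altered molecules are Mut M1 (miR-107-mut1) and Mut M2 (miR-107-mut2), and their sequences and that of the control RNA were not used here. All groups are 1 cell line that received a small RNA, and untransfected cells were not analysed here, so each comparison sets the control RNA against other small RNAs. All groups of a replicate number share 1 code in the sample descriptions, to which 1 lysate of miR-16 adds a suffix, and what it stands for is not stated.

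Argonaute proteins hold small RNAs and use them as guides to bind messenger RNAs by base pairing, mainly through the seed near the 5′ end of the small RNA. Precipitating Argonaute with its bound RNA therefore samples messages that are engaged by small RNAs, while the lysate gives the level of the same messages in the whole cell. A transfected small RNA loads into Argonaute beside the cell's own microRNAs, and a negative control RNA is designed to have no intended target.

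The mature sequences of the transfected natural microRNAs that matched a RefSeq entry are shown to make clear which guides the control is set against. Capitals mark the seed, bases 2 to 8.
miR-103: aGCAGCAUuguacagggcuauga
miR-107: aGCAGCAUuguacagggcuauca
miR-16: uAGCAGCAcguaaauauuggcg
miR-195: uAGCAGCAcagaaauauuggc
miR-15b*: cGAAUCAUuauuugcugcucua
On GRCh38.p14, miR-103 lies at chr5:168560904-168560926 on the minus strand and again at chr20:3917541-3917563 on the plus strand. miR-107 lies at chr10:89592756-89592778 (minus). miR-16 lies at chr3:160404754-160404775 (plus) and chr13:50049027-50049048 (minus). miR-195 lies at chr17:7017667-7017687 (minus), and miR-15b* at chr3:160404645-160404666 (plus). miR-103 and miR-107 share 1 seed, and miR-16 and miR-195 share another. The pairs also differ outside the seed, so the contrast used below, called the seed contrast, compares whole molecules and not the seed alone.

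Values are log2 RMA values, and levels are compared only within a probe set. IP arrays had means of 3.61 to 3.65 and lysate arrays 7.11 to 7.17, and the control arrays lay inside both ranges (3.63 to 3.64 and 7.13 to 7.14). A few arrays stood apart by a low median correlation with their fraction: miR-15b* IP replicate 1 (0.821) and, in the lysates, replicate 2 of miR-103 (0.929), of miR-15b* (0.866) and of miR-16 (0.889). None was a control array, and the control IP arrays had median correlations of 0.907 to 0.937. Of the markers of cell type, 8 of 11 glial and 7 of 9 neuronal genes passed the filter. The filter used the mean over IP and lysate arrays together, so passing it does not give a lysate level. In the lysates, VIM, an intermediate filament gene of glial and mesenchymal cells, ranged from 12.34 to 12.84. The leukocyte gene PTPRC ranged from 3.40 to 3.76. LUM and DCN, of the fibroblast and endothelial markers, lay at 10.44 to 13.0 and 8.04 to 10.85, and epithelial KRT18 at 9.97 to 11.35. The glial markers S100B and AQP4 lay at 3.85 to 4.87 and 4.26 to 5.08. GFAP, the defining astrocyte filament, lay at 6.39 to 7.08. Markers of other types also passed, with 4 of 7 fibroblast and endothelial, 2 of 5 epithelial and 1 of 5 haematopoietic markers above the filter.

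Of the 11050 genes tested, 43 (0.389%) had all 3 control IP arrays above the 24 others, and the members are the 7 with the widest gap between the lowest control array and the highest other array. The gap was 2.06 for TAF12, 1.94 for MRGBP, 1.60 for SLC41A3, 1.11 for RNVU1-15, 0.75 for MRPL32, 0.605 for RPL26L1 and 0.597 for NPTN. The next genes were FLRT3 (0.405), CHST12 (0.34) and ZNF208 (0.317), so the members end at the step from NPTN to FLRT3. Larger steps lie within the 7, such as that from SLC41A3 to RNVU1-15. The smallest gaps above 0 were those of RPL4 (0.014), TIMM10 (0.01) and ALDH9A1 (0.009), and just below 0 lay NRM (-0.001), RPL30 (-0.002) and CSTB (-0.006). The same count for other transfections ran from 1 gene for miR-195 to 364 for miR-320 (3.29%), with 95 for Mut M1, 28 for miR-103, 6 for miR-107, 6 for Mut M2, 5 for miR-16 and 5 for miR-15b*. There were 7 genes with the 3 control IP arrays below all others.

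**Figure D1:**
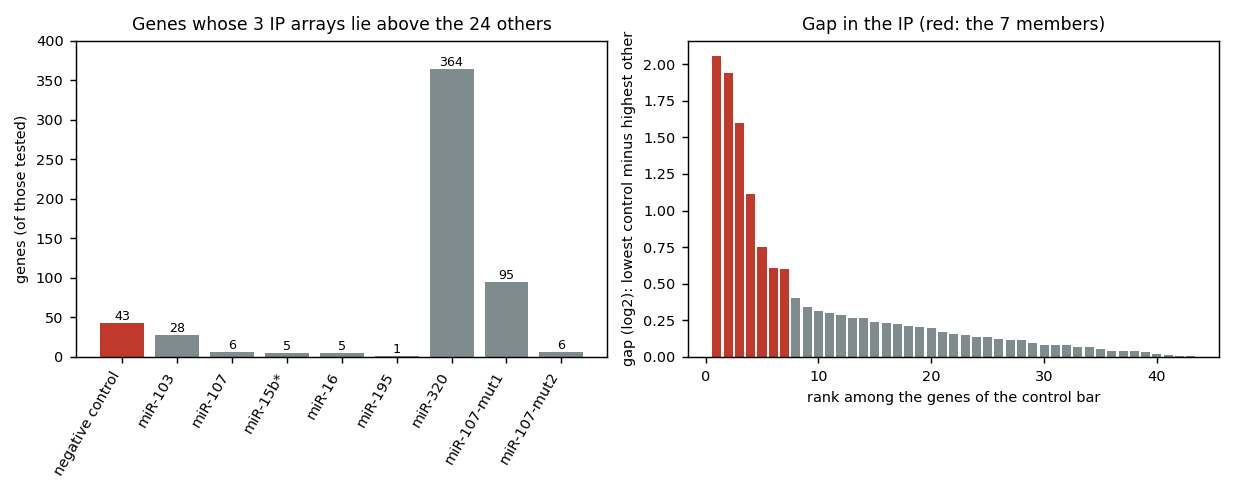
Left, the number of tested genes whose 3 IP arrays lie above the 24 other IP arrays, for each transfection, from 1 for miR-195 to 364 for miR-320 and 43 for the negative control. Right, the gap in log2 units between the lowest control array and the highest other array for the 43 genes by rank, with the 7 members in red from 2.06 down to 0.597.

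MRGBP encodes a subunit of the TIP60/NuA4 histone acetyltransferase complex. Its control IP values were 8.94, 8.67 and 9.48 (mean 9.03 ± 0.41, SD, n = 3), and the 24 other arrays ran from 4.73 through a median of 5.60 to 6.73. The groups did not overlap, and the control mean lay 3.37 above the mean of the 8 other groups, which is 10.3-fold. Within replicate numbers 1, 2 and 3 the difference was 3.48, 3.13 and 3.50, so it was of like size in each.

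SLC41A3 belongs to a family of magnesium transporters. The control IP arrays read 8.12, 8.67 and 8.58 (8.46 ± 0.30, SD, n = 3), against 4.33, 5.30 and 6.52 for the lowest, median and highest of the others. The groups did not overlap, and the difference was 3.14, or 8.79-fold. Within the replicate numbers it was 3.11, 3.47 and 2.84.

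TAF12 is a histone-fold subunit shared by the general transcription factor TFIID and the coactivator SAGA. It read 6.04, 5.99 and 6.42 in the control IP (6.15 ± 0.23, SD, n = 3), while the others ran from 2.65 through 3.40 to 3.93. This is the widest gap of all genes tested, with a difference of 2.70 (6.51-fold) and 2.62, 2.60 and 2.88 within the replicate numbers.

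NPTN encodes neuroplastin, an adhesion protein of the immunoglobulin family that associates with plasma membrane calcium pumps and is known from synapses. Control IP values were 8.27, 9.0 and 9.21 (8.83 ± 0.49, SD, n = 3), and the others spanned 5.38 to 7.67 around a median of 6.48. The lowest control array was the nearest of any member to the others, although the difference of means, 2.37 (5.15-fold), was larger than for RNVU1-15, MRPL32 and RPL26L1. By replicate number the difference was 2.25, 2.55 and 2.29.

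MRPL32 encodes a protein of the large subunit of the mitochondrial ribosome, which is matured by the m-AAA protease. Its control IP arrays read 6.80, 6.90 and 7.84 (7.18 ± 0.58, SD, n = 3), and the others lay between 5.12 and 6.05 with a median of 5.60. The groups did not overlap, and control replicates 1 and 2 lay close together with replicate 3 above them. The difference was 1.63 (3.09-fold), and within the replicate numbers 1.25, 1.53 and 2.10.

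RNVU1-15 is a variant U1 small nuclear RNA gene and so not a messenger RNA. U1 RNA recognises the 5′ splice site, and its genes exist in near-identical copies, so signal on these probes may come from several of them. The probe set used read 6.07, 6.12 and 6.15 in the control IP (6.11 ± 0.04, SD, n = 3) against 3.58, 4.30 and 4.96 for the lowest, median and highest of the others. The difference was 1.79 (3.46-fold), with the smallest control spread of the 7. A second probe set for the gene read 6.25, 6.17 and 6.26 in the control IP, with a gap of 1.2 and a difference of 1.96. Both gave the same picture, but whether they are independent readings was not tested.

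RPL26L1 encodes a close paralog of the ribosomal protein RPL26, and probes for paralogs this alike can share signal. With the probe set used, control IP values were 7.27, 7.08 and 7.41 (7.25 ± 0.17, SD, n = 3), and the others ran from 5.40 through 5.88 to 6.47, a difference of 1.35 (2.55-fold). The gene's second probe set did not show this. It read 3.28, 2.26 and 2.55 in the control IP and 1.92 to 3.25 in the others, which overlap, with a difference of 0.28. Averaged over both probe sets the difference was 0.81. RPL26 itself read 4.22, 4.38 and 3.77 in the control IP and 2.99 to 5.32 in the others, which also overlap, with a difference of 0.19.

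**Figure D2:**
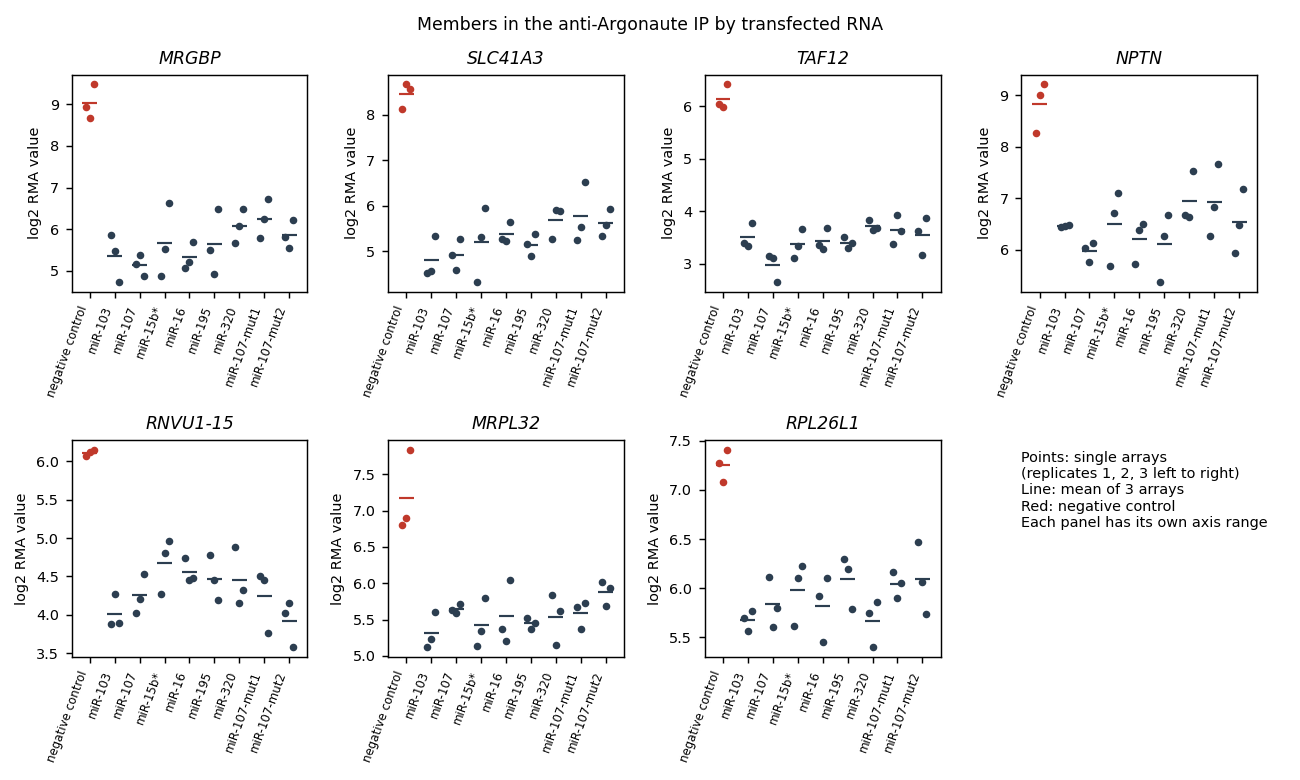
Each panel shows 1 gene in the anti-Argonaute IP, with the log2 RMA value of every array (points) by transfected RNA and the group mean (line). In all 7 panels the 3 control arrays sit above the 24 others, most widely for TAF12 (gap 2.06) and most narrowly for NPTN (gap 0.597).

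**Figure D3:**
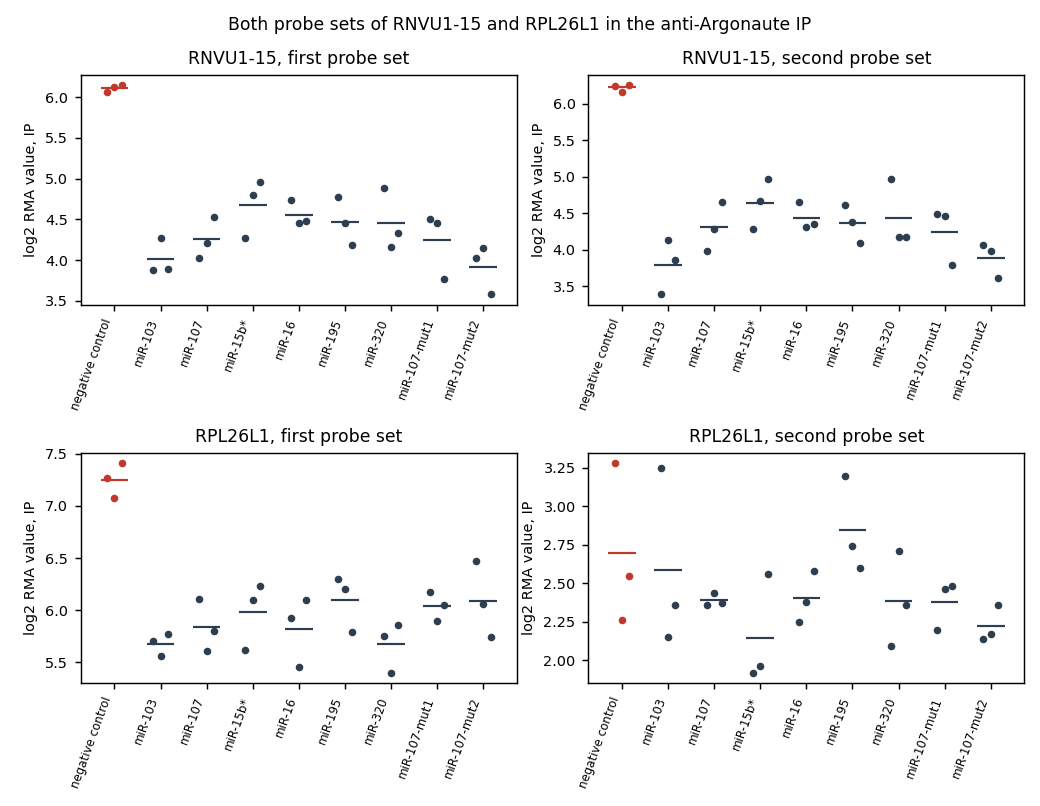
Log2 RMA values in the IP for both probe sets of RNVU1-15 and RPL26L1, by transfected RNA, with points for arrays and lines for group means. Both RNVU1-15 probe sets place the control arrays above the rest (gaps 1.11 and 1.2), while the second RPL26L1 probe set overlaps (gap -0.99).

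The values do not show that the RNAs were bound with the control RNA alone. Every other IP array gave a value for each gene, and background probes were not given, so whether a low value is bound RNA or background was not tested. What the IP shows is an order of levels, with the control first for all 7 by the choice of the genes. Next came Mut M1 for MRGBP (6.25 ± 0.47, SD, n = 3) and SLC41A3 (5.78 ± 0.66), and miR-320 for TAF12 (3.72 ± 0.10) and NPTN (6.95 ± 0.51). For RNVU1-15 the next group was miR-15b* (4.68 ± 0.36), for MRPL32 Mut M2 (5.88 ± 0.17) and for RPL26L1 miR-195 (6.09 ± 0.27). The lowest group was miR-107 for MRGBP (5.13 ± 0.25), TAF12 (2.96 ± 0.27) and NPTN (5.97 ± 0.19), miR-103 for SLC41A3 (4.81 ± 0.45) and MRPL32 (5.32 ± 0.26), Mut M2 for RNVU1-15 (3.92 ± 0.30) and miR-320 for RPL26L1 (5.67 ± 0.24). Of the 8 steps between neighbouring groups in each gene's order, only the first, from the control to the next group, separated the arrays of both groups. A second step was larger than the larger SD of its groups for TAF12 (miR-15b* to miR-107) and MRPL32 (Mut M2 to miR-107), with overlapping arrays.

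Differences among the 8 other transfections were tested in the IP with limma's moderated F, adjusted over all 11050 genes. The test does not compare the control, but the choice of the genes used the highest of the other IP arrays. A gene with a high array in any of these groups was less likely to be chosen. The counts of the 7 set beside all genes are therefore descriptions. So are their single p-values, in this fit and under the other settings. None of the 7 genes passed at an adjusted p under 0.05, where 7.26% of all genes did, and at an unadjusted p under 0.05 the count was also 0, beside 20.2% of all genes. Adjusted p was 0.25 for RNVU1-15, 0.26 for TAF12, 0.33 for SLC41A3, 0.40 for MRGBP, 0.49 for NPTN, 0.58 for RPL26L1 and 0.75 for MRPL32. With replicate number as a block, SLC41A3 (adjusted p = 0.022) and NPTN (adjusted p = 0.028) passed by limma's F, beside 20.2% of all genes. With array weights, MRGBP and TAF12 passed (adjusted p = 0.015 and 0.011, limma), as did 3161 of the 11050 genes. SLC41A3 group means in these 8 groups ran from 4.81 to 5.78, and those of NPTN from 5.97 to 6.95.

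The total lysates were not used to choose the genes, and there none of the 7 was called higher with the control without array weights. MRGBP and NPTN were lower in the control lysates than with every other RNA, the opposite of their order in the IP, and the other 5 did not pass the test. With array weights 4 of those 5 passed as well (limma): TAF12 (adjusted p = 0.00018) and MRPL32 (0.011) lower, and SLC41A3 (0.026) and RNVU1-15 (0.0065) higher with the control. That setting called 5667 of the 11050 genes in either direction, against 1647 without weights. In these bulk samples, fewer cells carrying a message and less of it per cell cannot be told apart. Of the 7, 2 were called lower (MRGBP and NPTN; 7.19% of all genes were) and 0 higher (7.71% of all genes) by limma with Benjamini-Hochberg adjustment, and 4 of 7 had an unadjusted p under 0.05, as had 26.3% of all genes. The medians of the lysate difference were -0.20 over the 7 and -0.01 over all genes tested.

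MRGBP read 9.88, 9.76 and 9.76 in the control lysates, and the 24 others ran from 10.16 through 10.33 to 10.58. The groups did not overlap, the highest control lysate lying 0.28 below the lowest other. Of all genes, 1.42% had the control lysates below all others by any amount. The difference was -0.54 ± 0.07 (SE; 95% interval -0.68 to -0.40), that is 1.45-fold lower, with adjusted p = 6.8e-06 in limma. It was -0.47, -0.64 and -0.50 within the 3 replicate numbers.

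NPTN read 10.51, 10.44 and 10.61 in the control lysates, against 10.73, 11.22 and 11.51 for the lowest, median and highest of the others. Again no array overlapped, with 0.12 between them. The difference was -0.65 ± 0.08 (SE; -0.83 to -0.48), 1.57-fold lower, with adjusted p = 8.9e-06 in limma, and it was -0.61, -0.69 and -0.65 within the replicate numbers. Thus 2 of 7 genes had control lysates below all others, and none had them above all others (0.878% of all genes).

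The remaining genes overlapped between control and other lysates. TAF12 read 8.54, 8.50 and 8.51 with the control and 8.22 to 8.98 with the others, a difference of -0.26 ± 0.09 (SE; -0.45 to -0.07) at adjusted p = 0.066 in limma. Its adjusted p was 0.038 with cyclic loess, 0.048 without the arrays that stood apart, 0.039 without miR-195 replicate 1 and 0.021 without Mut M2 replicate 2 (limma), so its call depends on the setting. MRPL32 read 9.60, 9.89 and 9.83 against 9.70 to 10.32, a difference of -0.20 ± 0.09 (SE; -0.38 to -0.01; adjusted p = 0.16, limma). SLC41A3, with 9.60, 9.34 and 9.42 against 9.0 to 9.88, differed by 0.10 ± 0.11 (SE; -0.12 to 0.32; adjusted p = 0.59, limma).

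RNVU1-15 varied most in the lysates, where the 24 other arrays spanned 9.56 to 11.56 around a median of 10.19. The control lysates read 10.82, 10.53 and 10.44, inside that span, a difference of 0.31 ± 0.20 (SE; -0.10 to 0.71; adjusted p = 0.35, limma). Its highest group in the lysates was miR-15b* (11.05 ± 0.49, SD, n = 3), which was also second in the IP. RPL26L1 read 9.09, 9.24 and 9.23 against 9.05 to 9.48, a difference of -0.07 ± 0.08 (SE; -0.24 to 0.10; adjusted p = 0.61, limma).

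**Figure D4:**
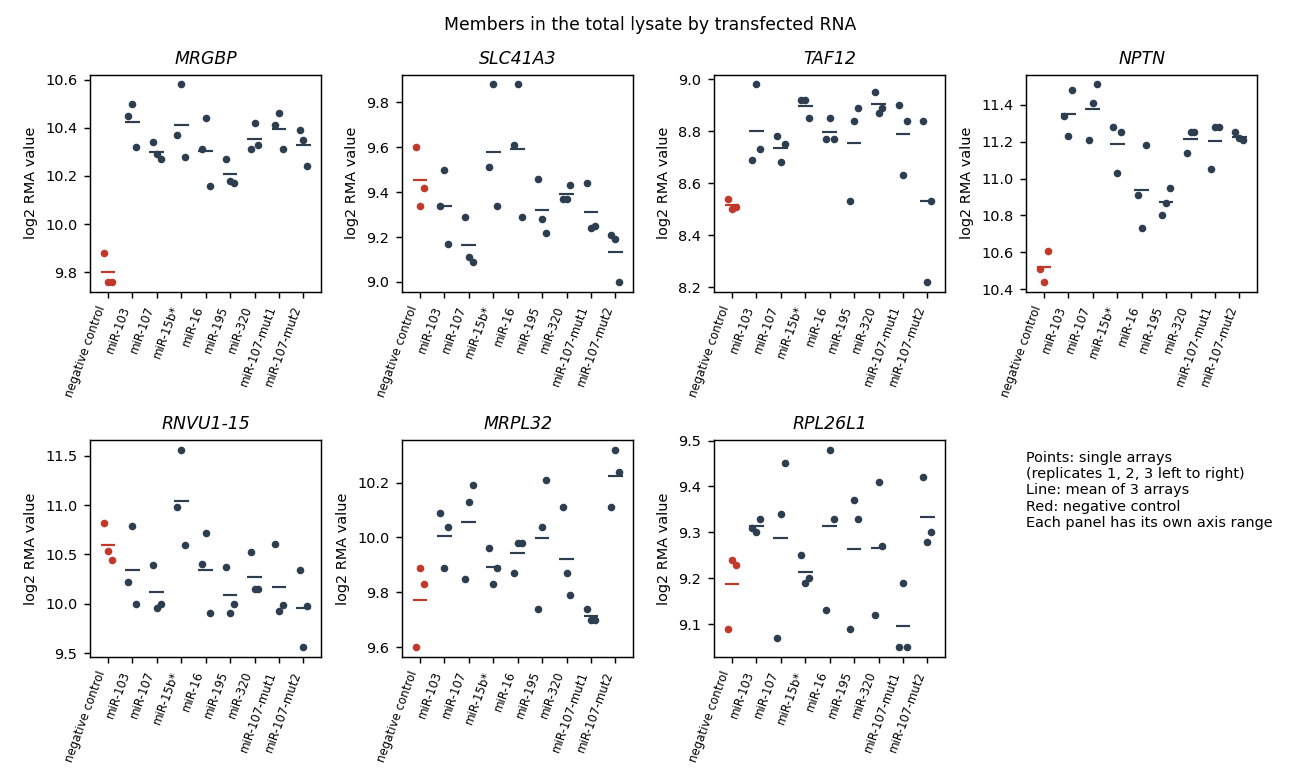
Each panel shows 1 gene in the total lysates, with the log2 RMA value of every array (points) by transfected RNA and the group mean (line). The control arrays of MRGBP and NPTN lie below all 24 others (by 0.28 and 0.12), and those of the other 5 genes overlap them.

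Set side by side, the IP and lysate differences of control minus the others were 3.37 and -0.54 for MRGBP, 2.37 and -0.65 for NPTN, 2.70 and -0.26 for TAF12, and 3.14 and 0.10 for SLC41A3. For MRPL32 they were 1.63 and -0.20, for RNVU1-15 1.79 and 0.31, and for RPL26L1 1.35 and -0.07. Subtracting the lysate difference from the IP difference left 3.91 for MRGBP, 3.04 for SLC41A3, 3.02 for NPTN, 2.96 for TAF12, 1.83 for MRPL32, 1.48 for RNVU1-15 and 1.42 for RPL26L1. These are descriptions, since the IP side was fixed by the choice of the genes. IP and lysate arrays have different means and may differ in scale, so a unit in one need not equal a unit in the other.

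**Figure D5:**
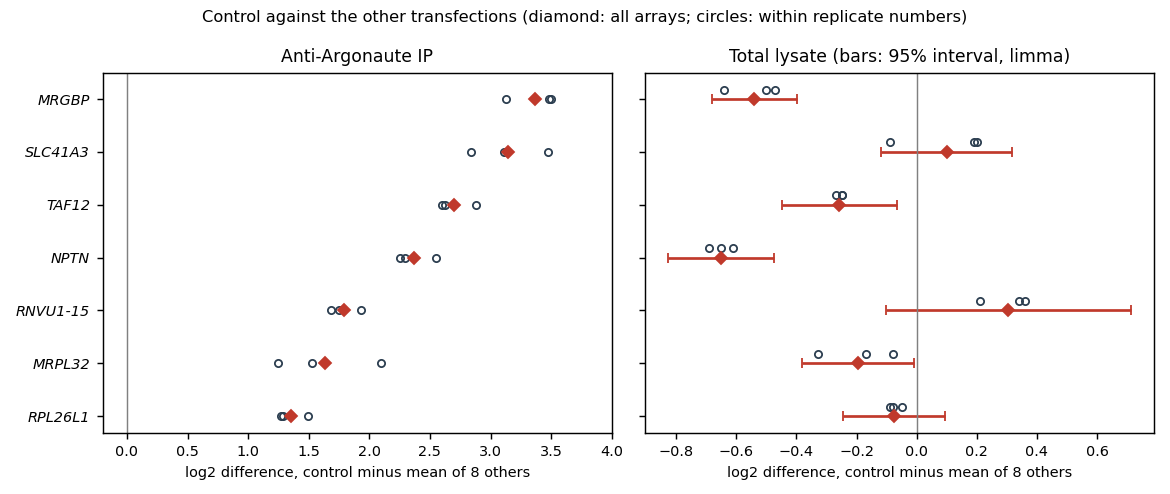
Log2 difference of the control from the mean of the 8 other transfections, in the IP (left) and the lysate (right, bars showing the 95% limma interval), with a diamond for all arrays and circles for each replicate number. IP differences run from 1.35 to 3.37, while lysate differences run from -0.65 to 0.31 and pass the adjusted p threshold only for MRGBP and NPTN.

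Each of the 8 transfections was also set against the control in the lysates. The 8 comparisons share the 3 control arrays, so they are not independent of each other. Of 56 pairs of gene and transfection, 17 were called by limma: MRGBP and NPTN with all 8, and MRPL32 with Mut M2. All were higher than the control. The share of all genes called higher was 8.37% with miR-103, 6.51% with miR-107, 3.5% with miR-15b*, 9.56% with miR-16, 6.82% with miR-195, 1.46% with miR-320, 3.33% with Mut M1 and 6.23% with Mut M2. SLC41A3, TAF12, RNVU1-15 and RPL26L1 were called with none of the 8. With replicate number as a block, 18 were called, TAF12 with miR-15b* being added (0.38 ± 0.12, SE; adjusted p = 0.046, limma, against 0.063 without the block).

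MRGBP exceeded the control by 0.41 ± 0.09 (SE; adjusted p = 0.0030, limma) with miR-195 at the least and by 0.62 ± 0.09 (adjusted p = 3.8e-05) with miR-103 at the most. Those extremes are a 1.33-fold and a 1.54-fold difference. Its group means in the lysates ran from 10.21 ± 0.05 (SD, n = 3) with miR-195 to 10.42 ± 0.09 with miR-103, and only the step down to the control (9.80 ± 0.07) separated neighbouring groups.

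NPTN varied more among the transfections. It exceeded the control by 0.86 ± 0.11 (SE; adjusted p = 8.1e-06, limma) with miR-107 and by 0.83 ± 0.11 (adjusted p = 1.3e-05) with miR-103. The differences were 0.71 with Mut M2, 0.69 with miR-320, 0.68 with Mut M1 and 0.67 with miR-15b*. They were smallest with miR-16 (0.42 ± 0.11; adjusted p = 0.011) and miR-195 (0.35 ± 0.11; adjusted p = 0.038). Of the steps between neighbouring groups, only that from miR-195 to the control separated the arrays. The call with miR-195 was lost without miR-195 replicate 2 (adjusted p = 0.10) or 3 (0.14) and without control replicate 1 (0.091), 2 (0.15) or 3 (0.052). The call with miR-16 was lost without miR-16 replicate 3 (adjusted p = 0.062) or control replicate 2 (0.064).

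MRPL32 was higher with Mut M2 than with the control by 0.45 ± 0.12 (SE; 0.20 to 0.70; adjusted p = 0.012, limma), the only call of this gene. Its group means were 10.22 ± 0.10 (SD, n = 3) and 9.77 ± 0.15. The call was lost without Mut M2 replicate 2 (adjusted p = 0.068) or control replicate 1 (0.079). Whether MRPL32 differs between Mut M2 and the other transfections was not tested.

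The contrast of miR-103 and miR-107 with miR-16 and miR-195 does not compare the control. It sets 1 pair against the other, and the pairs differ both in the seed and outside it. The lysate arrays of these microRNAs were not used to choose the genes, while their IP arrays were. In the lysates NPTN was the only 1 of the 7 called, where 10% of all genes were. With array weights SLC41A3 (-0.25; adjusted p = 3.8e-05), RPL26L1 (0.10; 0.038) and MRGBP (0.08; 0.040) were called too (limma). That setting called 5914 of the 11050 genes, against 1109 without weights. The NPTN means were 11.35 ± 0.13 (SD, n = 3) with miR-103 and 11.38 ± 0.15 with miR-107, against 10.94 ± 0.23 with miR-16 and 10.87 ± 0.08 with miR-195. The difference was 0.46 ± 0.08 (SE; 0.29 to 0.62), 1.37-fold, with adjusted p = 0.00044 in limma, and 0.42, 0.52 and 0.43 within the replicate numbers. The lysate differences of the other 6 ran from -0.20 for SLC41A3 (adjusted p = 0.24) to 0.10 for MRGBP (adjusted p = 0.40, limma).

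In the IP the same contrast called 0 of 7 by limma, beside 0.38% of all genes. The choice of the genes required these IP arrays to lie below the control arrays, so that count and the members' IP values below are descriptions. RNVU1-15 had an unadjusted p under 0.05 (6.35% of all genes had), at a difference of -0.38 ± 0.17 (SE; -0.73 to -0.03) and adjusted p = 0.73. NPTN, which differed in the lysates, had an IP difference of 0.06 ± 0.29 (SE; -0.54 to 0.65). Whether the fractions differ in this contrast was not tested. By replicate number the NPTN difference in the IP was 0.68, -0.22 and -0.29, so the IP arrays did not agree on its sign.

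Genes that work with the members were read from lists of their complexes and pathways, leaving the members out. For their counts at an unadjusted p under 0.05, the share of all genes tested was 11.2% in the IP and 26.3% in the lysates. Among 16 other genes of the TIP60/NuA4 complex, none was called in the IP (2 at an unadjusted p under 0.05), and in the lysates 2 were called higher with the control and 1 lower. DMAP1, a subunit of that complex, was the largest at 0.58 ± 0.09 (SE; adjusted p = 6.4e-05, limma), opposite in sign to MRGBP. BRD8 (0.34; adjusted p = 0.022) and ACTB (-0.17; adjusted p = 0.024), also of that complex, lost their calls without any 1 of the control lysates (adjusted p = 0.052 to 0.16 and 0.078 to 0.14). The median difference of the list was 0.20 in the IP and 0.15 in the lysates, beside 0.06 and -0.01 over all genes tested.

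Among 28 other genes of TFIID and SAGA, none was called in the IP (7 at an unadjusted p under 0.05), where the median was 0.39. TAF10, another histone-fold subunit of both complexes, is 1 of the 43 genes whose control IP arrays lay above all others, with a gap of 0.23 and a difference of 0.53 ± 0.16 (SE; adjusted p = 0.15, limma). In the lysates 2 were called higher and 3 lower, with a median of 0.11. TAF11, a TFIID subunit, was lower by 0.70 on the log2 scale (difference -0.70 ± 0.09, SE; adjusted p = 1.1e-05, limma). TAF9B was higher by 0.72 ± 0.24 (SE; adjusted p = 0.041). The call was lost in 6 of 27 fits with 1 array left out, including those without control replicate 2 (adjusted p = 0.29) or 3 (0.22). Under the other settings its adjusted p reached 0.0544 (limma). TAF5L (-0.35; adjusted p = 0.0050) and USP22 (0.32; adjusted p = 0.018), both of SAGA, missed the threshold without control replicate 1 (adjusted p = 0.064 and 0.18).

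Ribosomal proteins were read in the same way. Of 46 other proteins of the mitochondrial large subunit, 0 were called in the IP (7 at an unadjusted p under 0.05; median 0.20) and 1 in the lysates. That 1 was MRPL20, at 0.25 ± 0.08 (SE; adjusted p = 0.041, limma). The call was lost in 14 of 27 fits with 1 array left out, including those without control replicate 2 (adjusted p = 0.33) or 3 (0.14). Under the other settings its adjusted p reached 0.0504 (limma). Neither of the 2 m-AAA protease genes was called in either fraction, nor had an unadjusted p under 0.05. The 35 proteins of the cytosolic large subunit had an IP median of 0.54, and 22 had an unadjusted p under 0.05. Of these only RPL30 was called in the IP, at 1.11 ± 0.27 (SE; adjusted p = 0.049, limma), and it missed the threshold with no filter (0.064) and in 21 of 27 fits with 1 array left out, including each control IP array (adjusted p = 0.17 to 0.32). In the lysates 4 of the 35 were called higher and 0 lower (median 0.14), with RPL14 the largest at 0.40 ± 0.07 (SE; adjusted p = 0.00044). RPL27A followed at 0.30 (adjusted p = 0.0038; 0.11 and 0.38 as the mean of its probe sets) and RPL12 at 0.24 (adjusted p = 0.0068; 0.11 without control replicate 2). The 4 other ribosomal protein paralogs had no call in either fraction and none at an unadjusted p under 0.05.

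None of 14 other spliceosomal small nuclear RNA genes was called in the IP (2 at an unadjusted p under 0.05; median 0.15) or the lysates (1 at an unadjusted p under 0.05). Among 9 genes of the U1 particle and Sm proteins, 0 were called in the IP (3 at an unadjusted p under 0.05) and SNRPC alone in the lysates. SNRPC, which encodes a protein of the U1 particle, differed by -0.92 ± 0.16 (SE; adjusted p = 0.00033, limma) in the lysates. Among 13 other magnesium transport genes, 0 were called in the IP, with 0 at an unadjusted p under 0.05, and in the lysates 2 were higher and 2 lower. SLC41A1, the magnesium transporter of the same family as SLC41A3, differed by -0.68 ± 0.08 (SE; adjusted p = 1.2e-06, limma), and NIPAL2 by 0.69 ± 0.12 (SE; adjusted p = 0.00035). CNNM4 differed by -0.46 (adjusted p = 0.011; 0.17 and 0.060 without control replicate 2 or 3) and CNNM3 by 0.41 (adjusted p = 0.020; 0.067 to 0.13 without any 1 control lysate). The 5 relatives and partners of neuroplastin had no call in either fraction and none at an unadjusted p under 0.05.

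Other genes were ranked by how closely their IP values followed the mean standardised values of the 7 over the 27 IP arrays. Closest were ZNF208 (Pearson r 0.842), IDO1 (0.819), ZSCAN31 (0.816), SMU1 (0.814), SLC39A9 (0.81), FBXO17 (0.808), FLRT3 (0.806) and ZNF257 (0.804). By single gene the closest was FBXO17 for MRGBP (0.875) and SLC41A3 (0.845), ZSCAN31 for TAF12 (0.817), OSBPL9 for NPTN (0.902), ALDH9A1 for RNVU1-15 (0.732), SRPK1 for MRPL32 (0.804) and COX4I1 for RPL26L1 (0.732). These coefficients describe arrays that share the step between control and other IPs, which is what the 7 were chosen for.

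The lysate direction of MRGBP and NPTN was not that of most genes high in the control IP. Of the other 36 genes with control IP arrays above all others, 12 were called higher in the control lysates and 3 lower by limma, with a median difference of 0.14 and 11 of 36 below 0. Of the 117 genes called higher in the control IP (1.06%), 44 were called higher and 5 lower in the lysates, and MRGBP and NPTN are among the 5. The number called in the IP depended on single control arrays: higher and lower calls together were 119, and 46, 75 and 12 without control replicate 1, 2 and 3.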

How the data were processed

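Deposited values are RMA summaries that the authors made with Affymetrix Expression Console 1.1, as the submitters' processing notes list, and are read here as log2 intensities. The log base is not stated, which limits every fold given. RNA was extracted with Trizol LS and prepared with the Ambion WT kit, per the labels' protocols.

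The array has 33297 probe sets, of which 12083 have no gene symbol, 1754 have several and 19460 have 1 in the probe table. Only the last were used. By gene ID 19429 were found in the gene table, and 31 kept the probe table's symbol. Where several probe sets shared a gene (769 genes), the brightest on average was taken, leaving 18417 genes. The dimmest 40% (7367 genes with a mean below 5.26) were left out of the tests, and 11050 remained. The closest pair of arrays correlated at 0.9947, so none was a duplicate.

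The 27 IP arrays and the 27 lysate arrays had separate limma 3.58.1 models (R 4.3.3), each with 9 groups, Benjamini-Hochberg adjustment over 11050 genes and a call at an adjusted p under 0.05. The fit was tested on simulated data. A p-value measures the spread between samples labelled as biological replicates, and 3 arrays per group limit the precision.

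The members and gene lists were chosen with earlier results of these data known. The text names all 7 members, list genes called in either fraction (up to 4 per list, the largest first), the 8 genes most like the members, and 3 genes at each end of the gap ranking outside the members and 3 just below 0, with RPL26 beside RPL26L1. TAF10 was named after its values were seen.

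All groups of a replicate number share a code in the sample descriptions. Deviations from group means correlated within a number at a mean of 0.27 in the IP (84 of 108 pairs above 0.1) and 0.31 in the lysates (79 of 108), against -0.13 and -0.14 between numbers. The fit with replicate number as a block is given where it changes a call, and differences within each number stand beside the results. Sequences and their coordinates are RefSeq's on GRCh38.p14. Python 3.11.15, pandas 2.3.3 and matplotlib 3.10.9 made the tables and figures.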

Additional observations from a re-analysis of the deposited data

Results flagged for a closer look

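MRGBP and NPTN differ in direction between the fractions: their control arrays lie above all other arrays in the IP and below all other arrays in the lysate. The lysate separation was 0.28 for MRGBP and 0.12 for NPTN (log2, lowest other array minus highest control array). The difference between the fractions was not tested, because the IP side was fixed when the genes were chosen.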

How the results depend on the processing

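Alternatives were no filter, a 60% filter, cyclic loess, limma with trend and robust settings, array weights (the weight estimate stopped before its tolerance), the mean of a gene's probe sets, replicate number as a block, each array left out in turn and, chosen after seeing the data, leaving out the arrays that stood apart. The lysate calls of MRGBP (-0.56 to -0.52) and NPTN (-0.68 to -0.64) and the NPTN seed contrast in the lysates (0.44 to 0.51) kept direction and call under the 8 alternatives other than single arrays left out. With each array left out, the control calls of MRGBP and NPTN also held (adjusted p up to 0.00034 and 0.00049, limma). So did the NPTN seed contrast (adjusted p up to 0.00235, limma).

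Counts of genes called moved more, and the cause was not tested. For control against the others in the IP, 119 became 213 with loess, 520 with weights, 523 with the replicate block, 204 without the arrays that stood apart and 12 (without control replicate 3) to 278 (without miR-15b* replicate 3) with 1 array left out. In the lysates 1647 became 5667 with weights, 3060 without those arrays and 908 (without control replicate 2) to 1955 with 1 left out, with 1021 without control replicate 3. Among the 8 others in the IP, 802 became 1257, 3161 and 2231 with loess, weights and block, and 521 (without miR-320 replicate 3) to 1528 (without miR-15b* replicate 3) with 1 left out. For the seed contrast, 42 in the IP became 102, 89 and 102 with loess, weights and block (26 without miR-107 replicate 3 to 63 with 1 left out, and 27 without miR-103 or miR-16 replicate 2), and 1109 in the lysates became 5914 with weights, 1736 with the block and 1801 without the arrays that stood apart (805 to 1362 with 1 left out). The 17 pairs became 37 with weights (15 to 18 with 1 left out) and 18 with the block. Besides TAF12 with miR-15b*, the block changed members' calls for SLC41A3 and NPTN among the 8 other transfections and no other.

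Signs turned for some values near 0: the lysate seed contrast of TAF12 (0.042 with loess) and RNVU1-15 (-0.14 with weights, -0.0081 without the arrays that stood apart), and the IP seed contrast of MRPL32 (0.089 with loess, 0.072 with weights). With 1 array left out, the lysate seed contrast ran from -0.060 to 0.029 for TAF12, -0.10 to 0.11 for RNVU1-15, -0.0030 to 0.11 for MRPL32 and -0.037 to 0.063 for RPL26L1. The IP seed contrast then ran from -0.13 to 0.20 for NPTN and -0.097 to 0.11 for MRPL32. The IP difference of RPL26L1 was 1.11 with loess and 0.81 as the mean of its probe sets, and that of RNVU1-15 1.72 with weights and 1.88 as the mean. Signal over background was not analysed here, so low IP values carry an unknown share of background.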
